A study of Bos taurus with 12 samples.

Results

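The genes described here are 9 genes whose products the liver releases into the blood: the fetuins AHSG and FETUB, the carrier proteins RBP4 and SELENOP, the signals FGF21, ANGPTL4, ANGPTL8 and LECT2, and the activin subunit gene INHBE. They were taken by symbol from the 30336 genes counted, 21227 of which had at least 1 read, and 9 of 9 were found. Reads came from mRNA of liver puncture biopsies of Holstein heifer calves at 4 d of age. Dams of the CON calves received a control diet, and dams of the MET calves received the same diet plus ethyl cellulose rumen-protected methionine, over the last 28 d before calving. After birth the calves of both groups were fed and managed alike, and 6 libraries were deposited per maternal diet. The question was whether the methionine supply of the dam altered gene expression in the liver of the newborn.

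Hepatokines are proteins that hepatocytes secrete and that act on other tissues, in the way that hormones do. Several of them follow the nutritional state: FGF21 is known as a signal of fasting and of amino acid shortage, ANGPTL4 as a fasting-induced and ANGPTL8 as a feeding-induced regulator of lipoprotein lipase. Fetuin-A, the product of AHSG, is among the abundant glycoproteins of fetal and neonatal calf plasma. Both fetuins belong with the kininogens and histidine-rich glycoprotein to the type 3 cystatins. Liver is also the main source of RBP4, which carries retinol, and of SELENOP, which carries selenium.

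Total counts per library ranged from 8277789 to 10397604 reads, so that 3 reads, taken as the detection floor, corresponded to 0.2885 to 0.3624 CPM, the reads of a gene per 1000000 scaled reads. In 2 pairs, CON replicates 1 and 4 and MET replicates 1 and 3, the libraries differed by little more than sampling noise (chi-square per gene 1.333 and 1.241, against 25.123 to 132.917 in the other 64 pairs of libraries). Each pair was counted as 1 sample, named CON 1+4 and MET 1+3, which left 10 samples, 5 per diet. Means ± SD below are over these 5 samples, and a fitted value is over the 12 libraries where no other set of samples is named beside it. The 12-library fit enters both libraries of a pair as if they were independent, so its SE, intervals and FDR can be too small. The first index of the library adapters was the same in all CON libraries and another in all MET libraries, so index and maternal diet cannot be told apart. The study describes 6 calves per diet, and no source used here says why the libraries of a pair agree so closely. Hepatocyte markers summed to 51194 to 87469 CPM in CON and 42463 to 68494 CPM in MET, and 5 of 5 muscle and skin markers were at or under the floor in all libraries. Markers of blood and bile duct cells were present, the erythroid ones at 7.53 to 960.5 CPM in CON and 57.0 to 459 CPM in MET, and the bile duct ones at 50.8 to 78.1 and 30.5 to 67.8 CPM. In the 12-library edgeR fit, 1 of 5 hepatocyte markers (APOB, log2 fold change -0.38) and 1 of 4 tested bile duct markers (CFTR, -0.56) were called lower in MET.

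Expression of the 9 genes differed by several orders of magnitude. Compared per length, as CPM per kb of annotated exon, AHSG was the highest, at 6953 ± 1498 in CON and 5712 ± 1097 in MET (SD, n = 5 each). It was followed by RBP4 (3811 ± 728 and 3816 ± 838), SELENOP (2019 ± 239.7 and 1417 ± 249) and LECT2 (1396 ± 175 and 1321 ± 299.5). FETUB stood lower, at 225 ± 115 in CON and 106 ± 74.4 in MET. A group of 3 genes lay close together below it, with CPM per kb of 17.4 ± 8.99 and 19.4 ± 9.22 for ANGPTL8, 15.9 ± 10.9 and 14.9 ± 11.2 for INHBE, and 13.1 ± 7.40 and 17.3 ± 20.3 for ANGPTL4. FGF21 was the lowest, at 0.561 ± 0.610 and 0.896 ± 0.774. The ranges over the 10 samples overlapped between AHSG and RBP4, SELENOP and LECT2, ANGPTL8 and INHBE, and INHBE and ANGPTL4, so only the other 4 steps of this order exceeded the spread between samples. AHSG was nevertheless above RBP4 within 10 of 10 samples, and SELENOP above LECT2 within 9 of 10. By reads, AHSG ranked 11, RBP4 24 and SELENOP 26 among all genes, and the 9 genes together held 1.83% of all counted reads.

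**Figure D1:**
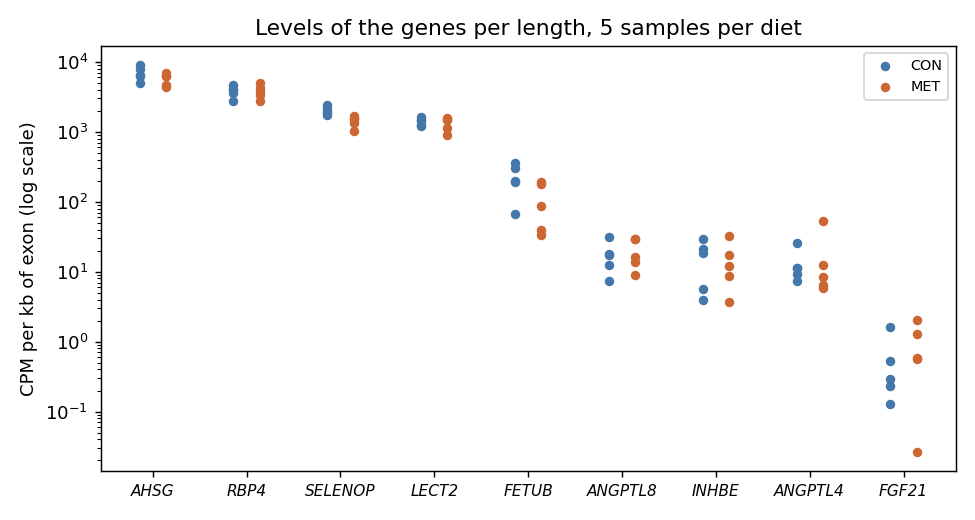
Level of each gene in CPM per kb of exon, on a log axis, with 1 point per sample and the diets side by side (5 CON and 5 MET samples). AHSG lies highest, between 4371 and 8944, and FGF21 lowest, between 0.0267 and 2.02.

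SELENOP was the 1 gene of the 9 that was called in the fit over all libraries, and it was lower in MET. It encodes selenoprotein P, the selenocysteine-rich plasma protein by which the liver supplies selenium to other tissues, and lies on chromosome 20, bases 31784034 to 31793708 of the + strand (UMD 3.1.1), with 2164 exon bases. Its level was 4555 CPM in CON 1+4, 5156 in CON 2, 3806 in CON 3, 4265 in CON 5 and 4062 in CON 6. In MET it was 3326 CPM in MET 1+3, 3619 in MET 2, 2210.4 in MET 4, 2930.4 in MET 5 and 3247 in MET 6. All 5 MET samples were below all 5 CON samples. The mean was 4369 ± 519 CPM in CON and 3067 ± 538 CPM in MET (SD, n = 5 each), and the exact two-sided permutation test of log2 CPM gave p = 0.00794, the smallest that 252 arrangements allow. Over the 12 libraries the fitted log2 fold change was -0.50 (SE 0.14, 95% interval -0.80 to -0.20, edgeR quasi-likelihood FDR 0.0869), a fold of 0.707. Over the 10 samples it was -0.51 (SE 0.17, interval -0.89 to -0.13) with an edgeR FDR of 0.205, which is past the limit of 0.10 used for a call. DESeq2 called it over both sets, with FDR 0.00551 and 0.0378. With 1 library left out at a time, fitted values ran from -0.55 to -0.42, and the edgeR FDR passed the limit only without MET replicate 2 (0.0944). In bulk tissue, fewer hepatocytes and less SELENOP mRNA per hepatocyte cannot be told apart. Of 5 hepatocyte markers, 1 was called, APOB, which was lower in MET (-0.38). Among those not called, ALB was at -0.65 (edgeR FDR 0.107), APOA1 at -0.28 (0.548) and TTR at 0.068 (0.907). The part of APOB, and of the summed hepatocyte markers, in the SELENOP difference was not tested.

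Among the 13212 genes that passed the expression filter, 583 were called in the 12-library fit, or 4.41%, and 2.32% were called lower in MET. Of the 9 genes, 8 passed the filter and 1 was called. Over the 10 samples edgeR called 0 of the 8, SELENOP alone having an unadjusted p of at most 0.05 (0.0119), and DESeq2 called SELENOP. None of 13242 genes was called over the 10 samples by edgeR (0%, lowest FDR 0.156), where 16.3% had an unadjusted p of at most 0.05, while DESeq2 called 9.95% over the 12 libraries (5.15% lower in MET) and 4.83% over the 10 samples (2.51% lower in MET). Diets that did not overlap over the 10 samples, as those of SELENOP, were found for 3.74% of the genes, and with MET lower for 1.78%. The median log2 fold change of the 8 genes was -0.057, beside -0.0031 for all genes tested. With factors from library totals alone, 107 genes were called in all, 66.4% of them higher in MET, against 47.3% with the trimmed-mean (TMM) factors used throughout.

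**Figure D2:**
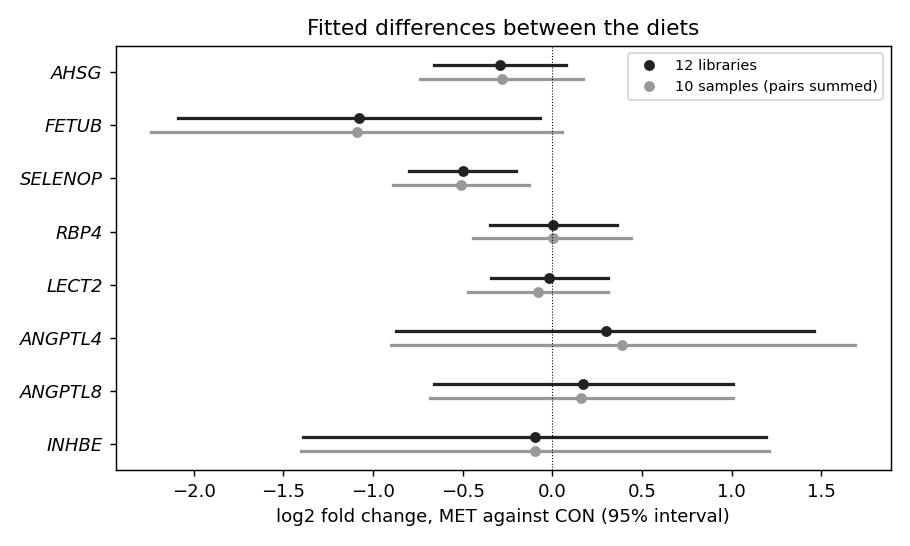
Fitted log2 fold change of MET against CON (edgeR) with its 95% interval for the 8 genes that passed the filter, over 12 libraries (black) and over 10 samples with the near-identical pairs summed (grey). SELENOP has intervals below 0 in both fits, and the interval of FETUB reaches past 0 over the 10 samples.

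The genes that surround SELENOP in function did not pass the test. Of 10 genes for selenocysteine synthesis, its insertion, and uptake of SELENOP, 9 were tested and 0 were called, with a median log2 fold change of 0.018. The lowest was SEPSECS, the enzyme that completes selenocysteine on its tRNA (-0.46, SE 0.17, edgeR FDR 0.147), and the highest EEFSEC, the elongation factor that delivers it (0.39, SE 0.16, edgeR FDR 0.196). At an unadjusted p limit of 0.05, 2 of the 9 passed over the 12 libraries, 1 passed over the 10 samples (20.5% and 16.3% of all genes), and DESeq2 called 0 in both fits (9.95% and 4.83%). CCDC152, which shares exon bases with SELENOP on the other strand, held 0.0183% as many reads as SELENOP, and the counting kept strands apart.

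Both fetuins had lower means in MET than in CON, and neither passed the test. AHSG encodes fetuin-A, a plasma glycoprotein that binds calcium phosphate, inhibits ectopic mineralization and is known to inhibit insulin receptor signalling. FETUB encodes fetuin-B, an inhibitor of astacin-like proteases that is known for its role in fertilization. They are neighbours on the - strand of chromosome 1 (UMD 3.1.1), FETUB at bases 81151205 to 81166512 with 1435 exon bases and AHSG at 81202139 to 81209052 with 1458.

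AHSG was at 11507 CPM in CON 1+4, 13041 in CON 2, 7380.2 in CON 3, 9283 in CON 5 and 9478 in CON 6, and at 9113 in MET 1+3, 6373 in MET 2, 6888 in MET 4, 9241 in MET 5 and 10029 in MET 6. The diets overlapped, with MET 2 and MET 4 below all CON samples and CON 1+4 and CON 2 above all MET samples. Means were 10138 ± 2184 and 8329 ± 1599.7 CPM (SD, n = 5 each), the log2 fold change was -0.29 over the 12 libraries (SE 0.17, 95% interval -0.66 to 0.078, edgeR FDR 0.356) and -0.28 over the 10 samples (SE 0.21, edgeR FDR 0.529). The exact permutation p was 0.159.

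FETUB varied far more between samples. It was at 522 CPM in CON 1+4, 272 in CON 2, 97.1 in CON 3, 285 in CON 5 and 438 in CON 6. In the MET samples it was at 254 CPM in MET 1+3, 48.3 in MET 2, 57.4 in MET 4, 124 in MET 5 and 273 in MET 6. All 5 MET samples were below the CON median of 285 CPM, but CON 3 lay under 3 of them. The mean was 323 ± 164 CPM in CON and 151 ± 107 CPM in MET (SD, n = 5 each), and the 12-library fit gave a log2 fold change of -1.08 (SE 0.47, 95% interval -2.09 to -0.071, unadjusted p = 0.0376, edgeR FDR 0.216). Over the 10 samples the value was -1.09 (SE 0.53, interval -2.24 to 0.054, edgeR FDR 0.326), and the exact permutation p was 0.111. An unadjusted p of at most 0.05 was found for 20.5% of all genes over the 12 libraries. With each of the 10 samples left out in turn, the difference of mean log2 CPM ran from -1.61 to -0.91 and its exact permutation p from 0.0476, without CON 3, to 0.222, without MET 2. Over the same omissions the fitted value ran from -1.42 to -0.85, with an edgeR FDR of 0.263 to 0.479.

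**Figure D3:**
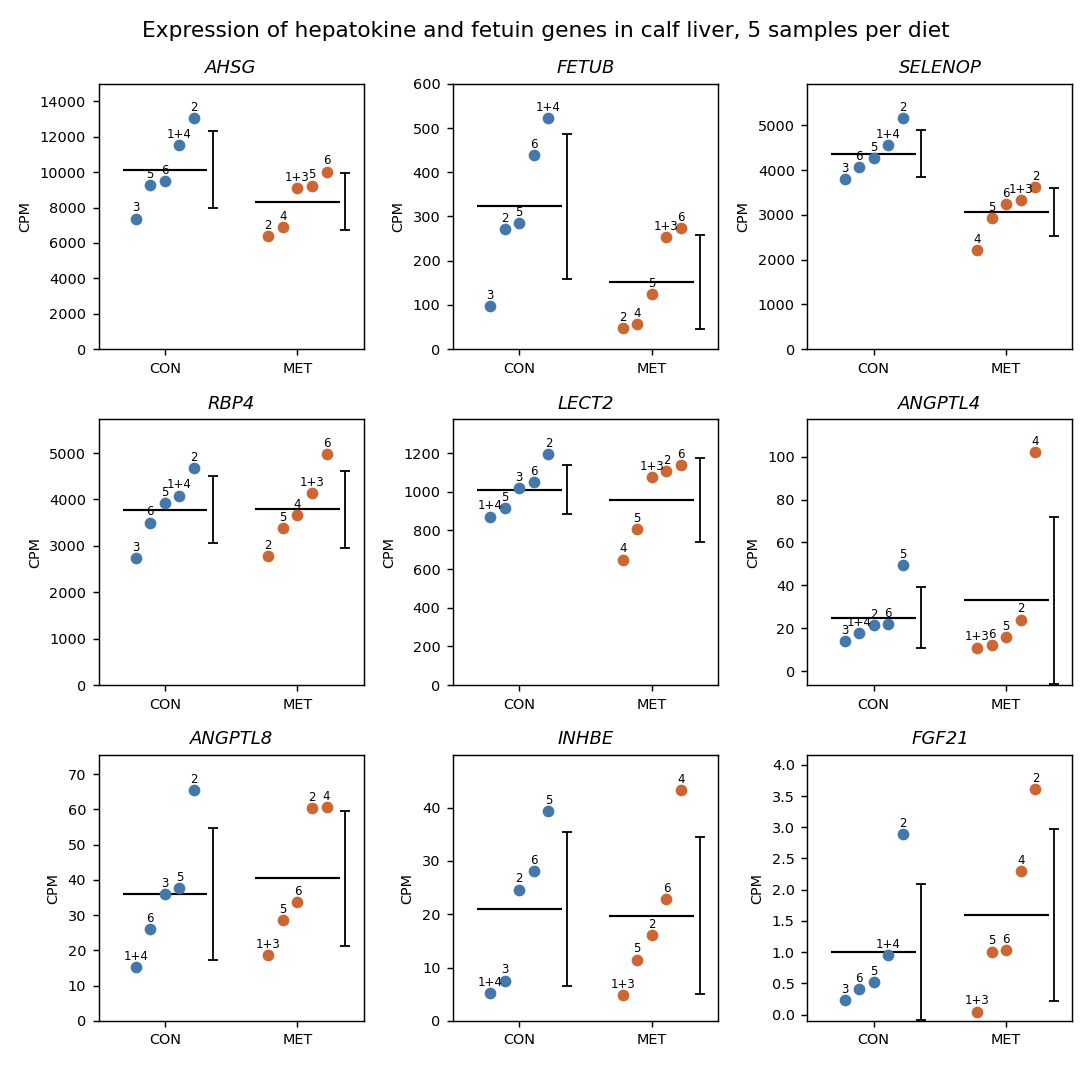
CPM of each of the 9 genes in the 5 CON and 5 MET samples, each point labelled with its replicate number or numbers; the horizontal line is the mean and the vertical bar the SD. SELENOP is the gene in which the diets do not overlap, and in ANGPTL4 the sample MET 4, at 102 CPM, stands above the others.

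The cystatin-family cluster on chromosome 1 holds 4 genes in 111754 bases, in the order KNG1, HRG, FETUB and AHSG. All 4 had negative log2 fold changes, beside a median of -0.0031 for all genes tested. Whether position on the chromosome had a part in this was not tested. HRG encodes histidine-rich glycoprotein, a plasma protein that binds heparin and plasminogen. Its level was 1272, 928, 582, 612 and 793 CPM in CON 1+4, 2, 3, 5 and 6, and 528, 335, 117, 384 and 504 CPM in MET 1+3, 2, 4, 5 and 6, so that the diets did not overlap. Diets that did not overlap, with MET lower, were found for 1.78% of all genes. HRG was called over the 12 libraries (log2 fold change -1.19, SE 0.32, edgeR FDR 0.0826), and was not over the 10 samples (-1.16, SE 0.35, edgeR FDR 0.183; exact permutation p = 0.00794, the smallest possible). Of all genes, 2.32% were called lower over the 12 libraries and 0% over the 10 samples. KNG1, the kininogen gene from which bradykinin is released, was at 4303 ± 479 CPM in CON and 3178 ± 708 CPM in MET (SD, n = 5 each) and was not called by edgeR (-0.43, SE 0.15, edgeR FDR 0.148; -0.44 and 0.282 over the 10 samples; exact permutation p = 0.0238). DESeq2 called HRG over both sets (FDR 0.00920 and 0.0371), and KNG1 over the 12 libraries (0.0549) but not over the 10 samples (0.140). It called 5.15% of all genes lower over the 12 libraries and 2.51% over the 10 samples. Sample MET 4 was the lowest for HRG and KNG1, and MET 2 for both fetuins. Of the 6 other genes tested within 250000 bases, the log2 fold changes ran from -0.82 for LOC101906884 to 0.83 for DNAJB11 (edgeR FDR 0.259). LOC101906884, which shares exon bases with AHSG on the other strand, had an edgeR FDR of 0.0862, and of 0.174 over the 10 samples. LOC101906884 held 0.0567% as many reads as AHSG. EIF4A2, a translation initiation factor gene next to KNG1, was also called over the 12 libraries (-0.35, SE 0.10, edgeR FDR 0.0869), but not over the 10 samples (0.220). ST6GAL1, RFC4 and TBCCD1 were at -0.0035, 0.023 and 0.022.

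**Figure D4:**
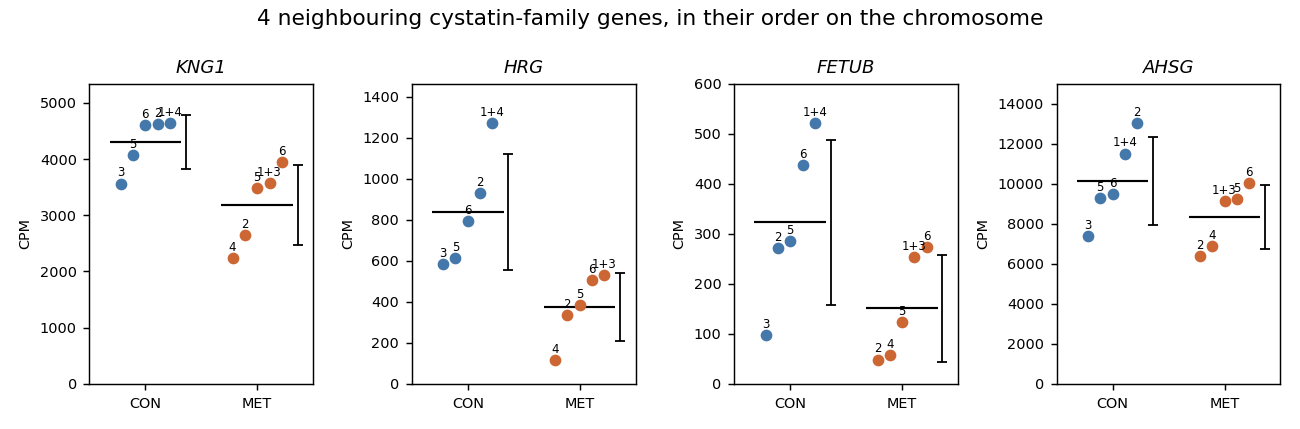
CPM of the 4 neighbouring cystatin-family genes in the 5 CON and 5 MET samples, in their order on the chromosome, with the mean (line) and SD (bar). The HRG samples of MET, at 117 to 528 CPM, lie below those of CON, at 582 to 1272 CPM, and the other 3 genes overlap.

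RBP4, the carrier of retinol from liver to tissues, had closely similar means in the diets. The gene lies on chromosome 26, bases 14940546 to 14946750 of the - strand, with 992 exon bases. Its level was 4085 CPM in CON 1+4, 4669.9 in CON 2, 2728 in CON 3, 3918 in CON 5 and 3503 in CON 6, and 4145 in MET 1+3, 2771 in MET 2, 3659 in MET 4, 3377 in MET 5 and 4978 in MET 6. Both diets covered nearly the same range, with CON 3 as the lowest and MET 6 as the highest sample. The means were 3781 ± 722 and 3786 ± 831 CPM (SD, n = 5 each) and the log2 fold change was 0.0054 (SE 0.17, edgeR FDR 0.988), with a 95% interval of -0.35 to 0.36 that leaves room for folds of 0.784 to 1.29. The fit to the 10 samples gave 0.0013 (SE 0.20, edgeR FDR 0.999). TTR encodes transthyretin, which binds RBP4 in plasma, and was at 2492 ± 819 and 2452 ± 823 CPM (log2 fold change 0.068, SE 0.24, edgeR FDR 0.907, and -0.024 over the 10 samples). Of 8 genes of retinol transport and storage, 6 were tested and 0 called, with a median log2 fold change of -0.32 and RDH11, a retinol dehydrogenase, as the lowest (-0.77, edgeR FDR 0.148). In both fits 2 of the 6 had an unadjusted p of at most 0.05 (20.5% of all genes over the 12 libraries, 16.3% over the 10 samples), and DESeq2 called 1 over the 12 libraries and 0 over the 10 samples, beside 9.95% and 4.83%.

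LECT2 encodes leukocyte cell-derived chemotaxin 2, a liver protein that attracts neutrophils and that is known as a target of beta-catenin in hepatocytes. It lies on chromosome 7, bases 48987178 to 48998964 of the - strand, with 724 exon bases. It was at 872 CPM in CON 1+4, 1195 in CON 2, 1018 in CON 3, 917 in CON 5 and 1052 in CON 6, and at 1077 in MET 1+3, 1109 in MET 2, 649 in MET 4, 808 in MET 5 and 1139 in MET 6. MET 4 and MET 5 were the lowest of the 10 samples and the remaining MET samples lay within the CON range. The means were 1011 ± 126 and 957 ± 217 CPM (SD, n = 5 each) and the log2 fold change was -0.016 (SE 0.15, 95% interval -0.34 to 0.31, edgeR FDR 0.969), and -0.08 over the 10 samples (SE 0.18, edgeR FDR 0.862). Of 12 LECT2 receptors and beta-catenin targets, all tested, 1 rose and 1 fell in the 12-library fit, beside 4.41% of all genes called. Over the 10 samples edgeR called 0, where 4 had an unadjusted p of at most 0.05 (16.3% of all genes), and DESeq2 called 2 (4.83% of all genes). The one that rose was CD209, a lectin of macrophages and dendritic cells that binds LECT2, with 7.74 ± 1.38 CPM in CON and 16.9 ± 7.59 CPM in MET (log2 fold change 1.01, SE 0.29, edgeR FDR 0.0886; 0.175 over the 10 samples). Summed Kupffer cell markers were at 915 to 1304 CPM in CON and 1056 to 1449.5 CPM in MET, with 1 of 6 markers, C1QB, called higher (0.39), and their part in the CD209 difference was not tested. The gene that fell was the hepatocyte growth factor receptor, a LECT2 receptor whose symbol, MET, is the same as the name of the diet (18.9 ± 1.89 and 11.2 ± 3.16 CPM, log2 fold change -0.69, SE 0.15, edgeR FDR 0.0602; 0.174 over the 10 samples). The beta-catenin targets of pericentral hepatocytes, among them AXIN2 and GLUL, were not called.

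The angiopoietin-like genes ANGPTL4 and ANGPTL8 had wide ranges that overlapped between the diets. ANGPTL4, an inhibitor of lipoprotein lipase, lies on chromosome 7, bases 18236517 to 18243587 of the + strand, with 1910 exon bases. It was at 17.9 CPM in CON 1+4, 21.5 in CON 2, 14.1 in CON 3, 49.6 in CON 5 and 21.9 in CON 6, and at 11.0 in MET 1+3, 24.1 in MET 2, 102 in MET 4, 16.0 in MET 5 and 12.3 in MET 6. In each diet 1 sample, CON 5 and MET 4, stood apart above the others, and MET 1+3 and MET 6 were the lowest of all. The CPM means were 25.0 ± 14.1 and 33.1 ± 38.9 (SD, n = 5 each) and the log2 fold change was 0.30 (SE 0.55, 95% interval -0.87 to 1.46, edgeR FDR 0.803) and 0.39 over the 10 samples (SE 0.60, edgeR FDR 0.779), whereas the difference of mean log2 CPM was -0.027 (exact permutation p = 0.976). Without MET replicate 4 the fitted value was -0.68 (edgeR FDR 0.265), so 1 library set the direction.

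ANGPTL8, which acts on lipoprotein lipase in the fed state, lies on chromosome 7, bases 16877699 to 16880797 of the + strand with 2080 exon bases, within DOCK6 on the opposite strand and with no exon bases in common. Its level was 15.3 CPM in CON 1+4, 65.5 in CON 2, 35.9 in CON 3, 37.7 in CON 5 and 26.0 in CON 6, and 18.7 in MET 1+3, 60.4 in MET 2, 60.7 in MET 4, 28.5 in MET 5 and 33.6 in MET 6. All MET samples fell inside the CON range. The means were 36.1 ± 18.7 and 40.4 ± 19.2 CPM (SD, n = 5 each), with a log2 fold change of 0.17 (SE 0.39, 95% interval -0.66 to 1.01, edgeR FDR 0.841), which fell to -0.027 without MET replicate 2 or MET replicate 4. It was 0.16 in the fit to the 10 samples (SE 0.39, edgeR FDR 0.869).

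Of 11 genes of the lipoprotein lipase axis, 9 were tested, and 1 fell and 0 rose over the 12 libraries, beside 2.32% of all genes called lower. EdgeR called 0 over the 10 samples, where 4 had an unadjusted p of at most 0.05 (16.3% of all genes), and DESeq2 called 1 (4.83% of all genes). The median log2 fold change of the list was -0.091. LPL itself was not called (25.5 ± 4.32 and 24.1 ± 4.48 CPM, log2 fold change -0.079), and LMF1, a lipase maturation factor, had the highest value of the list (0.15, edgeR FDR 0.495). Of 9 lipogenic and carbohydrate-responsive genes, 7 were tested and 0 called, from FASN, fatty acid synthase (-0.68, edgeR FDR 0.249), to SREBF1, a regulator of lipogenesis (0.64, edgeR FDR 0.103). In both fits 2 of the 7 had an unadjusted p of at most 0.05, beside 20.5% and 16.3% of all genes, and DESeq2 called 2 over the 12 libraries and 0 over the 10 samples, beside 9.95% and 4.83%.

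INHBE encodes the activin beta E subunit, a member of the transforming growth factor beta family made mostly in liver. It lies on chromosome 5, bases 56334244 to 56335809 of the - strand, with 1319 exon bases. Its level was 5.14 CPM in CON 1+4, 24.6 in CON 2, 7.55 in CON 3, 39.3 in CON 5 and 28.1 in CON 6, and 4.83 in MET 1+3, 16.1 in MET 2, 43.3 in MET 4, 11.5 in MET 5 and 22.8 in MET 6. The diets covered nearly the same range, and CON 5 and MET 4 were the highest samples, as they were for ANGPTL4. The means were 20.9 ± 14.4 and 19.7 ± 14.7 CPM (SD, n = 5 each) and the log2 fold change was -0.099 (SE 0.60, edgeR FDR 0.950; 95% interval -1.39 to 1.19, or folds of 0.382 to 2.28), and -0.095 over the 10 samples (SE 0.60, edgeR FDR 0.955). Its relative INHBC, the beta C subunit gene, was at 11.3 ± 4.89 and 9.13 ± 3.44 CPM (-0.16, SE 0.33, edgeR FDR 0.823). Among 16 subunits, inhibitors, receptors and transducers of the activin pathway, 12 were tested and 0 called, from SMAD2, a transducer (-0.36, edgeR FDR 0.107), to INHBA, the beta A subunit gene (0.59, edgeR FDR 0.459). An unadjusted p of at most 0.05 was found for 4 of the 12 over the 12 libraries and for 2 in the 10 samples, beside 20.5% and 16.3% of all genes, and DESeq2 called 1 and 0, beside 9.95% and 4.83%.

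FGF21, a hormone of fasting and amino acid shortage, was near the detection floor. The gene lies on chromosome 18, bases 55833627 to 55836240 of the + strand, with 1785 exon bases, and had 128 reads in all. The counts were 9, 23, 2, 8, 5 and 4 reads in CON replicates 1 to 6 and 0, 37, 1, 20, 9 and 10 reads in MET replicates 1 to 6. CON replicate 3 and MET replicates 1 and 3, the latter one of the near-identical pairs, were at or under the floor of 3 reads. The remaining libraries were above it, up to 2.89 CPM in CON 2 and 3.61 CPM in MET 2. The mean was 1.0 ± 1.09 CPM in CON and 1.60 ± 1.38 CPM in MET (SD, n = 5 each; exact permutation p = 0.587). The difference of mean log2 CPM was 0.47 over the 10 samples and 0.028 over the 12 libraries. With each of the 10 samples left out in turn it ran from 0.081 to 1.06. FGF21 was below the expression filter. In a fit with the looser filter of 0.5 CPM in 2 libraries the log2 fold change was 0.46 (SE 0.78, 95% interval -1.20 to 2.12, edgeR FDR 0.798), an interval that corresponds to folds of 0.434 to 4.33.

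Of 11 receptors and regulators of FGF21, all tested, 0 rose and 2 fell in the 12-library fit, beside 2.32% of all genes called lower. In the 10 samples edgeR called 0, where 2 had an unadjusted p of at most 0.05 (16.3% of all genes), and DESeq2 called 2 (4.83% of all genes). KLB, the coreceptor beta-klotho that FGF21 needs for its receptor, was at 74.8 ± 6.35 CPM in CON and 45.2 ± 11.4 CPM in MET (log2 fold change -0.69, SE 0.15, edgeR FDR 0.0571; 0.172 over the 10 samples). PPARA, the fatty acid receptor that drives FGF21 and ANGPTL4 in fasting, was at 17.9 ± 1.57 and 13.1 ± 2.00 CPM (-0.42, SE 0.12, edgeR FDR 0.0849; 0.178 over the 10 samples). The highest value of the list was that of MLXIPL, the carbohydrate response factor (0.26, edgeR FDR 0.312).

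Of 12 targets of PPARA, all tested, 3 fell and 0 rose, beside 2.32% of all genes called lower, with a median log2 fold change of -0.46 beside -0.0031 for all genes. Among the 3 were CPT1A, the entry enzyme of mitochondrial fatty acid oxidation (287 ± 55.1 and 197 ± 32.7 CPM, -0.55, edgeR FDR 0.0846), and ACADM, medium-chain acyl-CoA dehydrogenase (175 ± 49.1 and 101 ± 27.3 CPM, -0.75, edgeR FDR 0.0798). None of the 12 was called over the 10 samples by edgeR (FDR 0.183 for CPT1A and 0.180 for ACADM), where 5 had an unadjusted p of at most 0.05, beside 16.3% of all genes, and DESeq2 called 4, beside 4.83%. The list ran from VNN1, a pantetheinase (-0.89, edgeR FDR 0.204), to FABP1, liver fatty acid-binding protein (0.39, edgeR FDR 0.271).

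FGF21 and INHBE are also known to respond to ATF4, the transcription factor of amino acid shortage and stress. Of 12 genes of the ATF4 response, 10 were tested, and 1 rose and 0 fell, beside 4.41% of all genes called. The gene was DDIT3, the stress factor CHOP, at 17.7 ± 2.04 CPM in CON and 26.0 ± 2.66 CPM in MET (log2 fold change 0.52, SE 0.10, edgeR FDR 0.0452; 0.156 over the 10 samples), while PSAT1, a serine synthesis enzyme, was lowest (-0.73, edgeR FDR 0.113). EdgeR called 0 of the 10 over the 10 samples, where 3 had an unadjusted p of at most 0.05 (16.3% of all genes), and DESeq2 called 2 (4.83% of all genes).

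AHSG, RBP4 and TTR are known to fall in the acute-phase response. Of 10 genes that rise in that response, 0 were called, with a median log2 fold change of 0.15 and a range from CRP (-0.38, edgeR FDR 0.326) to HP, haptoglobin (1.05, SE 0.72, edgeR FDR 0.433). Of 6 genes that fall in it, 0 were called, from ALB, albumin (-0.65, edgeR FDR 0.107), to F12, coagulation factor XII (0.14, edgeR FDR 0.652). Among 11 hepatocyte transcription factors 10 were tested and 0 called, from ONECUT1 (-0.84, edgeR FDR 0.271) to CEBPA (0.26, edgeR FDR 0.504). At an unadjusted p of at most 0.05, the counts of these 3 lists were 0, 1 and 0 over the 12 libraries (20.5% of all genes) and 1, 1 and 0 over the 10 samples (16.3%), and DESeq2 called 0, 1 and 0 over either (9.95% and 4.83%).

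Of 20 other liver-secreted signals, 18 were tested, and 2 fell and 0 rose, beside 2.32% of all genes called lower. In both fits 5 of the 18 had an unadjusted p of at most 0.05, beside 20.5% and 16.3% of all genes, and DESeq2 called 4 over the 12 libraries and 3 over the 10 samples, beside 9.95% and 4.83%. Among those that fell was DPP4, a dipeptidyl peptidase that inactivates incretins (34.9 ± 3.51 and 24.8 ± 4.07 CPM, log2 fold change -0.49, SE 0.12, edgeR FDR 0.0692; 0.175 over the 10 samples). The highest value belonged to HAMP, the iron hormone hepcidin, at 3.08 ± 3.81 CPM in CON and 51.2 ± 57.4 CPM in MET, which was not called (3.56, SE 1.16, edgeR FDR 0.120). Over the 14 lists, 128 of 145 genes were tested, and 2 rose and 9 fell in the 12-library fit, in which 4.41% of all genes were called. Over the 10 samples 0 of the 128 were called by edgeR, 33 had an unadjusted p of at most 0.05, beside 16.3% of all genes, and DESeq2 called 15, beside 4.83%. The lists were chosen with earlier results of these data known.

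The genes also differed in how far the samples of a diet spread. The SD of log2 CPM within diets was 1.21 for INHBE, 1.06 for FETUB, 1.04 for ANGPTL4 and 0.75 for ANGPTL8, which placed them at the percentiles 98.7, 97.9, 97.8 and 94.3 of all genes tested. It was 0.30 for AHSG and RBP4, 0.28 for LECT2 and 0.23 for SELENOP, beside a median of 0.29. Individual samples were extreme for several of the genes at once. MET 4 had the highest ANGPTL4 and INHBE and the lowest SELENOP and LECT2, MET 2 the highest FGF21 and the lowest AHSG and FETUB, and MET 1+3 the lowest FGF21, ANGPTL4 and INHBE. CON 2 had the highest ANGPTL8, AHSG, SELENOP and LECT2, and CON 1+4 the highest FETUB and the lowest ANGPTL8.

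**Figure D5:**
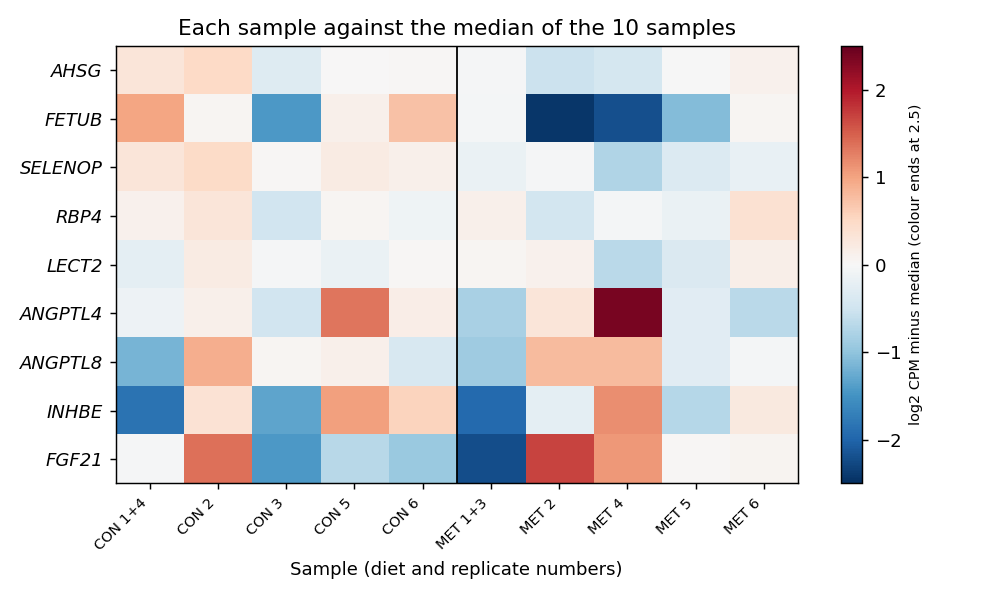
log2 CPM (prior count 2) of each of the 9 genes in each sample, as the difference from the median of that gene over the 10 samples; red is higher and blue lower, and the line divides CON from MET. FETUB reaches -2.44 in MET 2, ANGPTL4 reaches 2.37 in MET 4, and INHBE reaches -1.94 in MET 1+3.

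The fetuins had the highest Pearson's r of log2 CPM among the 36 pairs of the 9 genes, but not for the deviations from the diet means, where AHSG and RBP4 had the highest, at 0.86. Between AHSG and FETUB Pearson's r was 0.84 (permutation p = 0.00192, or 0.0691 with Benjamini-Hochberg adjustment over 36 pairs) and Spearman's rho 0.83 (permutation p = 0.00428, n = 10). It was 0.90 without the 2 samples farthest from the AHSG median, and 0.80 for the deviations from the diet means. For AHSG and RBP4 r was 0.76 (permutation p = 0.0103, adjusted 0.155) and rho 0.68 (permutation p = 0.0346), with r = 0.58 without the 2 farthest samples. For ANGPTL4 and INHBE r was 0.72 (permutation p = 0.0129, adjusted 0.155) and rho 0.78 (permutation p = 0.010), with r = 0.51 without the 2 farthest. No pair passed an adjusted p of 0.05, and the values share the scaling of each library.

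For each of the 8 genes the 2 named genes with the highest Pearson's r over the 10 samples were found, and 13 of these 16 are given as a description. They were TEF for AHSG (r = 0.911), TRRAP and SMG6 for FETUB (0.957 and 0.924), NR3C1 for SELENOP (0.944), and PRDX6 and SULT1A1 for RBP4 (0.943 and 0.929). They were ACSM1 and WFDC1 for LECT2 (0.939 and 0.927), ATP6V1G1 and SLC22A5 for ANGPTL4 (0.883 and 0.880), AK6 and MTX2 for ANGPTL8 (0.901 and 0.890), and EGLN3 for INHBE (0.906). When deviations from the diet means were used, 5 of the 16 genes remained among the 2 most alike.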

How the data were processed

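The authors deposited raw counts per gene (featureCounts of Subread 1.5.2, reverse-stranded, exon level, uniquely assigned reads) from single-end reads of stranded mRNA libraries, trimmed with Trimmomatic, checked with FastQC 0.11.15 and aligned with STAR 2.5.3a to UMD 3.1.1. Depth was 8277789 to 10397604 counted reads. Entrez identifiers were named from a RefSeq table of another assembly (25105 of 30336 matched; 9 of 9 genes here), so coordinates are those of the count files. Floors cover counting error only. The 9 genes and 14 lists were chosen with earlier results of these data known.

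Counts were fitted with edgeR 4.0.16 (R 4.3.3; TMM factors, default filterByExpr, quasi-likelihood test, diet as the only term), with Benjamini-Hochberg adjustment over all genes tested and a call at FDR of at most 0.10. The same fit was run with near-identical pairs summed. Intervals are 95%, and SE is the log2 fold change divided by the root of F. Single genes were compared by exact two-sided permutation of log2 CPM (prior count 2; scipy 1.17.1). P values set the difference between the diets against the spread between these samples. Those over the 12 libraries enter both libraries of each near-identical pair, so part of the spread they use is between near-identical libraries. Named genes were the 9, called genes and the extremes of each list, fixed relatives, and the 2 genes most alike. DESeq2 1.42.0, limma 3.58.1, other factors, filters and a length correction, and each library left out, were alternatives. Replicate numbers were not taken as pairs. Sequences were not used here. Results of some listed genes are not reported here.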

Additional observations from a re-analysis of the deposited data

Results flagged for a closer look

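Each of the 9 genes was examined in each diet for a sample whose gap to its nearest neighbour took more than 0.71 of the range over the 5 samples of that diet, in CPM. For normally distributed values chance flags about 1 in 20 such groups, and the rate can differ for values in CPM. In all, 18 groups were examined. In ANGPTL4, MET replicate 4 was at 102 CPM against 11.0 to 24.1 CPM in the other MET samples (0.86 of the range), and CON replicate 5 was at 49.6 CPM against 14.1 to 21.9 CPM in the other CON samples (0.78). In FGF21, CON replicate 2 was at 2.89 CPM, which rests on 23 reads, against 0.229 to 0.950 CPM in the other CON samples (0.73). On the log2 scale the gaps took 0.65, 0.65 and 0.50 of the range and none was past the limit.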

How the results depend on the processing

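SELENOP, FETUB and AHSG were lower in MET in all 38 alternatives, with log2 fold changes of -0.58 to -0.41, -1.42 to -0.85 and -0.38 to -0.18. The count of genes called (583) was 602 with RLE and 666 with upper quartile factors, 107 with library totals only, 374 with totals without the 10 most counted genes, 238 with no filter, 1314 with DESeq2 and 245 with the length trend removed. It was 0 with pairs summed (TMM, RLE or length trend removed) and with 1 library of each pair kept. No block by replicate number was taken as pairing, since same-numbered libraries correlated by -0.19 to 0.148 and 0 of 6 CON libraries correlated best with their own number; with the replicate block 6 genes, 0 of the 9 and 0 list genes were called. Of the 9, the 1 called (SELENOP) became 0 in each of these settings except RLE, upper quartile and DESeq2, and with a filter of 0.5 CPM. The 11 list genes became 1, 5, 4, 22 and 4 in the settings with totals, totals without 10 genes, no filter, DESeq2 and length, and 0 with pairs summed, 1 library of each pair kept or the block. With 1 library left out, counts ran from 26 (without CON replicate 1) to 565 for all genes, 0 to 1 for the 9 (1 without MET replicate 2) and 0 to 12 for the lists. With 1 of the 10 samples left out they were 0, except 39 genes and 2 list genes without MET 1+3. Genes with an exact p of at most 0.05 numbered 1 to 2 (FETUB was added without CON 3). Of the 16 most alike genes 5 stayed with deviations from diet means. DESeq2 gave no adjusted p for ANGPTL4 over the 12 libraries. Small values changed sign: ANGPTL4 was -0.17 with limma voom and -0.20 with the block; RBP4 was -0.012 with upper quartile factors, -0.00019 with voom, -0.003 with 1 library of each pair and -0.12 with either length setting, and its difference of log2 CPM 0.00096 over 12 libraries and 0.0086 with totals only; LECT2 was 0.034 with totals only; TTR was -0.024, -0.019, -0.022 and -0.022 with pairs summed (edgeR), 1 library of each pair kept, pairs summed with DESeq2 and pairs summed with RLE, and -0.12 and -0.22 with the length trend removed over 12 libraries and over 10 samples. With samples left out, log2 fold changes ran from -0.68 to 0.80 for ANGPTL4, -0.034 to 0.49 for ANGPTL8, -0.12 to 0.096 for RBP4, -0.61 to 0.28 for INHBE, -0.15 to 0.078 for LECT2, -0.51 to 0.05 for INHBC and -0.21 to 0.24 for TTR, and differences of log2 CPM from -0.57 to 0.26 for ANGPTL4, -0.09 to 0.43 for ANGPTL8, -0.12 to 0.10 for RBP4, -0.45 to 0.36 for INHBE and -0.18 to 0.028 for LECT2. The causes were not tested.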
